A study of Rattus norvegicus with 8 samples.

Results

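The genes described here encode the proteins of the mitochondrial ribosome in rat abdominal aorta. They were chosen by name alone, as the rows of the deposited expression table whose identifier begins with Mrpl (large subunit series) or Mrps (small subunit series) followed by a digit, and 75 of 18090 rows met that rule. The name was checked against the proteins' known roles: 73 of the 75 are subunits of the mitochondrial ribosome, Mrps36 (Kgd4 in RefSeq) carries the name but is a component of the α-ketoglutarate dehydrogenase complex, and Mrps21l is a near-identical copy of Mrps21. Another 3 subunit genes, mrpl9, mrpl11 and mrpl24, are spelled in lower case in the table and fall outside the rule.

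All samples were abdominal aorta of wild-type rats, sequenced as polyA RNA and assigned by the labels to 1 batch. In the FeCl3 group (4 samples) the vessel was wrapped for 5 min with filter paper carrying 10% iron chloride, which damages the vessel and provokes a thrombus, and in the saline group (4 samples) the paper carried 0.9% saline. The comparison asks which transcripts differ between the injured vessel and its control. The replicates were described as biologically independent, but p-values here measure only the spread between these samples. Age, sex and the time from exposure to harvest are not given in the sources used here.

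Mitochondria keep a small genome that encodes a few core subunits of the respiratory chain, and the mitochondrial ribosome translates those messages inside the organelle. Its RNAs come from that genome, but all of its proteins are encoded in the nucleus, made in the cytosol and imported. Many of these proteins have counterparts in bacterial ribosomes and many others are specific to mitochondria. Tissues rich in mitochondria, such as brown fat and heart, are known for high expression of the whole set.

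The start regions of 4 members are shown because the results turn on them: Mrps18a, Mrps18b and Mrps18c are paralogues with different values in the same libraries, and Mrps6 is the member that departed from all others. Sequences are from RefSeq (GRCr8, each 250 bases before to 50 after the annotated start, 5′ to 3′ on the gene's strand). They lie at chr9:22367331-22367630 (minus strand) for Mrps18a, chr20:2842756-2843055 (plus) for Mrps18b, chr14:9122857-9123156 (minus) for Mrps18c and chr11:44778417-44778716 (plus) for Mrps6. Capitals mark matches on either strand to the palindromic NRF1 element (the first run of capitals in Mrps18b) or the same letters with any base in place of the T, CCGGAAG (the ETS family, which includes GABPA), AAGATGGC (YY1) or TATAAA. NRF1, GABPA and YY1 are known regulators of nuclear genes for mitochondria.
Mrps18a: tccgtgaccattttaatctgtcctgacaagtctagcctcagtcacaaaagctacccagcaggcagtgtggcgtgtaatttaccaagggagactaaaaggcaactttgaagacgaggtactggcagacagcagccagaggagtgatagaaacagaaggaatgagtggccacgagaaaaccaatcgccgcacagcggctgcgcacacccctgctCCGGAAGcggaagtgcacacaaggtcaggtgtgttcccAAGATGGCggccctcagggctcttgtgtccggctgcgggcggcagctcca
Mrps18b: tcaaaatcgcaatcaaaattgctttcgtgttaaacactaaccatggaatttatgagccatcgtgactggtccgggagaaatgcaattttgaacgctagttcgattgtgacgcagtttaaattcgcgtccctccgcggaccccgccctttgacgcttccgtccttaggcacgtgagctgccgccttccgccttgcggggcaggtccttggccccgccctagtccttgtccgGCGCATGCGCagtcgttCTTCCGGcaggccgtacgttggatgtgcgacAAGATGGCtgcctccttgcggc
Mrps18c: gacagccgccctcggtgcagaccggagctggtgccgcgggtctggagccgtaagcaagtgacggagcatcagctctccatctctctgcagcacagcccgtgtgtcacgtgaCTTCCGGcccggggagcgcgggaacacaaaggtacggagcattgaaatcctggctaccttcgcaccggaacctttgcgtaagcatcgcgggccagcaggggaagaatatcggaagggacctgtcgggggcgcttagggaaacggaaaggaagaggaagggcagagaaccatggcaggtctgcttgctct
Mrps6: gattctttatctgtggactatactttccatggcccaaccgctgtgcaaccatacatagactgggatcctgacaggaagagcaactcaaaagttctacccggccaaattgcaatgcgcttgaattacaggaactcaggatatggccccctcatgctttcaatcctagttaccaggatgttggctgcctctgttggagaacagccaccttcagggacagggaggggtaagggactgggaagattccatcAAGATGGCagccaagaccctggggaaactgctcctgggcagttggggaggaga
Mrps18b held the NRF1 palindrome, CCGGAAG read on the opposite strand, and AAGATGGC. Mrps18a held CCGGAAG and AAGATGGC, Mrps18c held CCGGAAG on the opposite strand, and Mrps6 held AAGATGGC alone. That is not particular to Mrps6: other members, Mrps7 among them, also held AAGATGGC alone.

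For 60 of the 75 members RefSeq supplied a start region, with 62 windows in all. At least 1 of the NRF1 element in its general form, CCGGAAG and AAGATGGC was found in 33 of the 62 windows (53.2%), against 14.6% of all 33469 windows and 28.4% of the 10820 windows of genes tested here. CCGGAAG was in 20 windows (32.3%, against 8.75% of all windows and 17.4% of those of tested genes), and AAGATGGC was in 15 (24.2%, against 3.17% and 5.42%). The NRF1 palindrome itself, which is counted again in the general form, was in 4 windows (6.45%, against 0.852% and 1.87%), and the general form was in 9 (14.5%, against 4.25% and 9.57%). TATAAA was in 8 windows (12.9%), between the 14.2% of all windows and the 6.88% of those of tested genes. Member windows had a median GC content of 55.7%, and those of all genes and of tested genes had 51.7% and 60.7%. These are counts of letters and do not show that a factor binds. Members with and without CCGGAAG had median log2 fold changes (FeCl3 minus saline) of 0.01 and -0.07, and for AAGATGGC both medians were near -0.03.

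Values are FPKM, fragment counts divided by gene length and by the library total, as the authors deposited them. The fragment totals recovered from these values were 24304434 to 30283292 per library. Before the members are described, 3 saline libraries need naming. Haemoglobin genes took 16.5% of fragments in saline replicate 4, within the 16.4% to 34.1% of the FeCl3 libraries, and at most 1.63% in the other saline libraries. Saline replicate 2 held 6272 FPKM of Ucp1, the uncoupling protein that defines brown adipocytes, where the next libraries held 76.5 (FeCl3 replicate 2), 53.1 (saline replicate 3) and 11.7 FPKM (saline replicate 4), and the remaining 4 held at most 0.69. Saline replicate 1 held almost no white adipocyte or leukocyte marker transcripts (summed levels of 0.32 FPKM over 5 white adipocyte genes and 3.73 FPKM over 6 leukocyte genes). Its endothelial markers, summed over 4 genes, stood at 5.76 FPKM, where the other libraries had 74.5 to 166. It also had the highest smooth muscle level, 25398 FPKM summed over 6 genes, where the other libraries had 3685 to 14976. Smooth muscle markers, which mark the vessel's media, were thus present in every library.

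The members were moderately to highly expressed. After a filter of at least 1 FPKM in at least 4 libraries, 74 of 75 members and 11921 genes in all were kept. The median member had a mean level of 24.4 FPKM, where the median tested gene had 8.25 FPKM, and 69 of the 74 lay above that median gene. The tested members rested on 69 to 4062 fragments per library. The member left out, Mrps21l, was listed at 0 in 7 libraries and at 0.18 FPKM in saline replicate 2, and the handling of reads shared with Mrps21 is not stated in the sources.

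In no member did FeCl3 and saline differ by the test, a moderated linear model (limma with trend on log2(FPKM + 1)) with Benjamini-Hochberg adjustment over all tested genes. Of the 74 tested members 0 passed an adjusted p of 0.05, and 0% of the 11921 genes did. At an unadjusted p under 0.05 there were also 0 members, where 16.6% of all tested genes had one. The 4 FeCl3 values and the 4 saline values overlapped in every member, and they were fully apart in 9.81% of all tested genes. The smallest adjusted p of a member was 0.356 (Mrps2).

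The estimates lay on both sides of 0, with 30 members higher and 44 lower after FeCl3, and ran from -0.82 (Mrps2, a ratio of 0.567) to 0.69 (Mrps18c, a ratio of 1.62) on the log2 scale. No member exceeded an absolute log2 fold change of 1, which 9.86% of tested genes did. The median over members was -0.07 and that over all tested genes was -0.25. Most members are short genes, and 62 of the 74 fall in the shortest quartile of tested genes (up to 1781 bases), whose median was 0.04. The median of those 62 members was -0.04. The spread within groups was larger for members than for genes at large, with a median residual SD of 0.65 against 0.45 on the log2 scale.

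**Figure D1:**
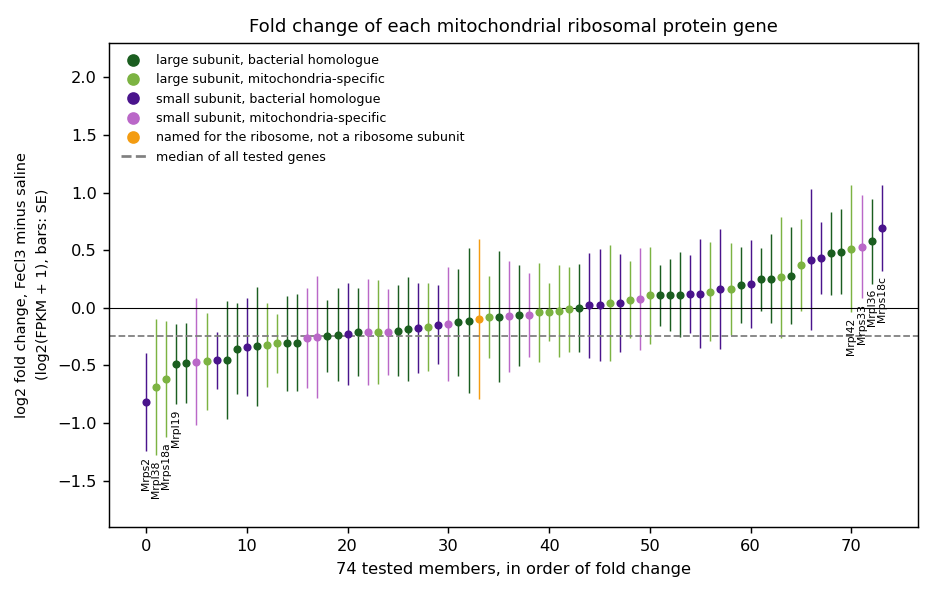
Log2 fold change (FeCl3 minus saline, log2(FPKM + 1) scale, vertical axis) of each of the 74 tested members in order of size, with bars of 1 standard error and colours by role. Estimates run from -0.82 to 0.69, most bars cross 0, and the roles are mixed along the order.

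The number of members higher after FeCl3 moved with the scaling, which also moved the median of all genes, and the sign of their median relative to all genes turned with single libraries. With FPKM as deposited 30 members were higher after FeCl3, with median-of-ratios scaling 52 were (median 0.16, all genes -0.05), and with rescaling to TPM 0 were (median -0.78, all genes -0.90). Median-of-ratios scaling left 1 member, Mrps24, higher in every FeCl3 library than in every saline library (4.24% of tested genes were), and quantile normalization left the same 1 (3.64%). With TPM 2 members passed as lower (Mrps2 and Mrps6, 27% of tested genes passed as lower) and 3 were lower without overlap (33.3% of tested genes). Relative to all tested genes the members' median was 0.18 as deposited, 0.21 with median-of-ratios scaling and 0.13 with TPM. Leaving out FeCl3 replicate 2 gave -0.03, and leaving out saline replicate 1 gave -0.01. Without saline replicate 2 it was 0.42, and without saline replicate 4 it was 0.11. No direction is therefore given for the genes as a set.

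What the members shared was their pattern across individual libraries. The median member stood at 20.5, 34.1, 13.8 and 18.3 FPKM in FeCl3 replicates 1 to 4 and at 11.5, 44.1, 20.8 and 18.6 FPKM in saline replicates 1 to 4. In FPKM as deposited, saline replicate 2 and FeCl3 replicate 2 were thus high and saline replicate 1 was low. On that scale the extremes of the saline group enclosed the whole FeCl3 group for the median member. Saline replicate 2 lay above and saline replicate 1 below every FeCl3 library in 30 of the 74 members. That share over all tested genes was not computed. With median-of-ratios scaling the saline extremes did not enclose the FeCl3 group at the median. There the members' median log2 level, centred on each gene's mean, was 0.79 in FeCl3 replicate 2 and 0.70 in saline replicate 2. In FPKM as deposited, either saline replicate 2 or FeCl3 replicate 2 was the highest for 73 of the 74 members. This held for 37.0% of tested genes. With median-of-ratios scaling it again held for 73 members (30.1% of tested genes) and with TPM for 72 (32.2%).

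Saline replicate 2 was the highest library for 55 members (74.3%, against 27.4% of tested genes), and saline replicate 1 the lowest for 46 (62.2%, against 34.6%). FeCl3 replicate 3 was the lowest for 23 (31.1%, close to the 29.4% of tested genes). The split between the leading libraries moved with scaling. With median-of-ratios scaling saline replicate 2 led in 35 members (15.7% of tested genes) and FeCl3 replicate 2 in 38 (14.4% of tested genes). Saline replicate 1 was then the lowest for 28 (37.8%, against 25.1% of tested genes). With TPM saline replicate 2 led in 70 members (29.5% of tested genes) and FeCl3 replicate 2 in 2 (2.66% of tested genes). Saline replicate 1 was then the lowest for 6 (14.9% of tested genes), and FeCl3 replicate 3 was the lowest for 64 (86.5%, against 57.7% of tested genes). Which library was lowest thus depended on the scaling. The ratio of saline replicate 2 to saline replicate 1 had a median of 3.35 over members and 1.47 over tested genes. In each of the 74 members the fold between these controls was larger than the fold between the group means, in FPKM as deposited. The 2 controls were picked as the extremes of most members, so this largely follows from the choice. The share over all tested genes was not computed.

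**Figure D2:**
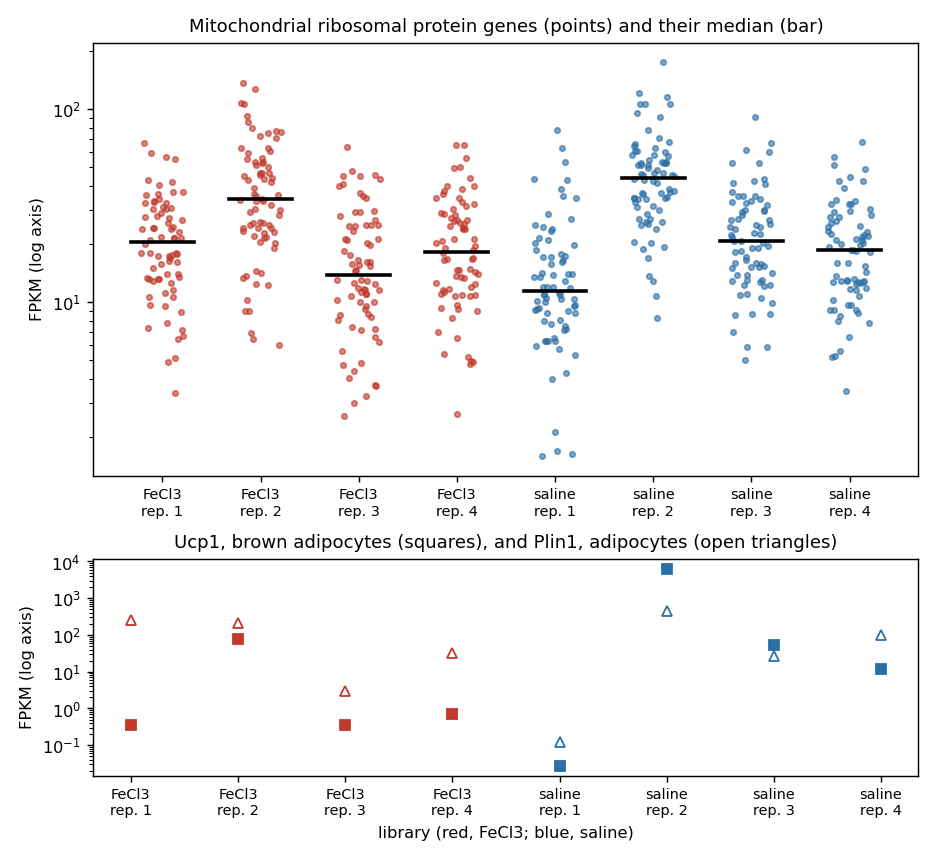
Upper panel: level of each tested member (points) and their median (bar) in each library, in FPKM on a log axis. Lower panel: levels of Ucp1 and Plin1 in the same libraries, in FPKM on a log axis. The members' median runs from 11.5 FPKM in saline replicate 1 to 44.1 FPKM in saline replicate 2, the libraries with the lowest and the highest Ucp1.

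The brown adipocyte markers Ucp1 and Cidea were highest in the same pair of libraries as the members. White adipocyte markers as a list were high in that pair too, though 3 of 5 peaked in another library. Of the 5 brown adipocyte markers listed, 3 were in the table, and their summed level was 28.0 to 199 FPKM after FeCl3 and 26.3 to 6728 FPKM after saline. Ucp1 was highest in saline replicate 2 and next in FeCl3 replicate 2, the libraries with the highest members. It was lowest in saline replicate 1, the library with the lowest members in FPKM as deposited but not with every scaling. Cidea, another brown adipocyte gene, had 36.1, 121, 27.6 and 32.5 FPKM after FeCl3 and 25.9, 424, 27.1 and 28.9 FPKM after saline. It was highest in the same pair. The remaining marker, Ppargc1a, had 0.79, 1.02, 0.12 and 0.13 FPKM after FeCl3 and 0.34, 31.1, 0.80 and 0.56 FPKM after saline. It was thus little raised in FeCl3 replicate 2 and lowest in FeCl3 replicate 3. Of the 5 white adipocyte markers all were lowest in saline replicate 1, but 1, the lipid droplet protein gene Plin1, was highest in saline replicate 2. It had 263, 209, 2.94 and 32.8 FPKM after FeCl3 and 0.12, 463, 27.4 and 101 FPKM after saline. The adipokine genes Adipoq, Cfd and Lep were highest in FeCl3 replicate 1, where the members were not high, and Retn in FeCl3 replicate 2. Adipoq had 1664, 1146, 74.4 and 452 FPKM after FeCl3 and 0.20, 702, 27.5 and 376 FPKM after saline. The estimates of all 5 were positive (median log2 fold change 2.52), and 0 passed. The part of adipocytes in the members' levels was not tested, and in bulk tissue fewer cells of a type and less RNA per cell cannot be told apart. A fit with the brown adipocyte marker level as covariate was added after seeing the data. In it 0 members passed, 65 were higher after FeCl3 and 20 had an unadjusted p under 0.05 (21.5% of all tested genes did). The marker level was by far highest in saline replicate 2, so that fit leans on 1 library and gives no direction.

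**Figure D3:**
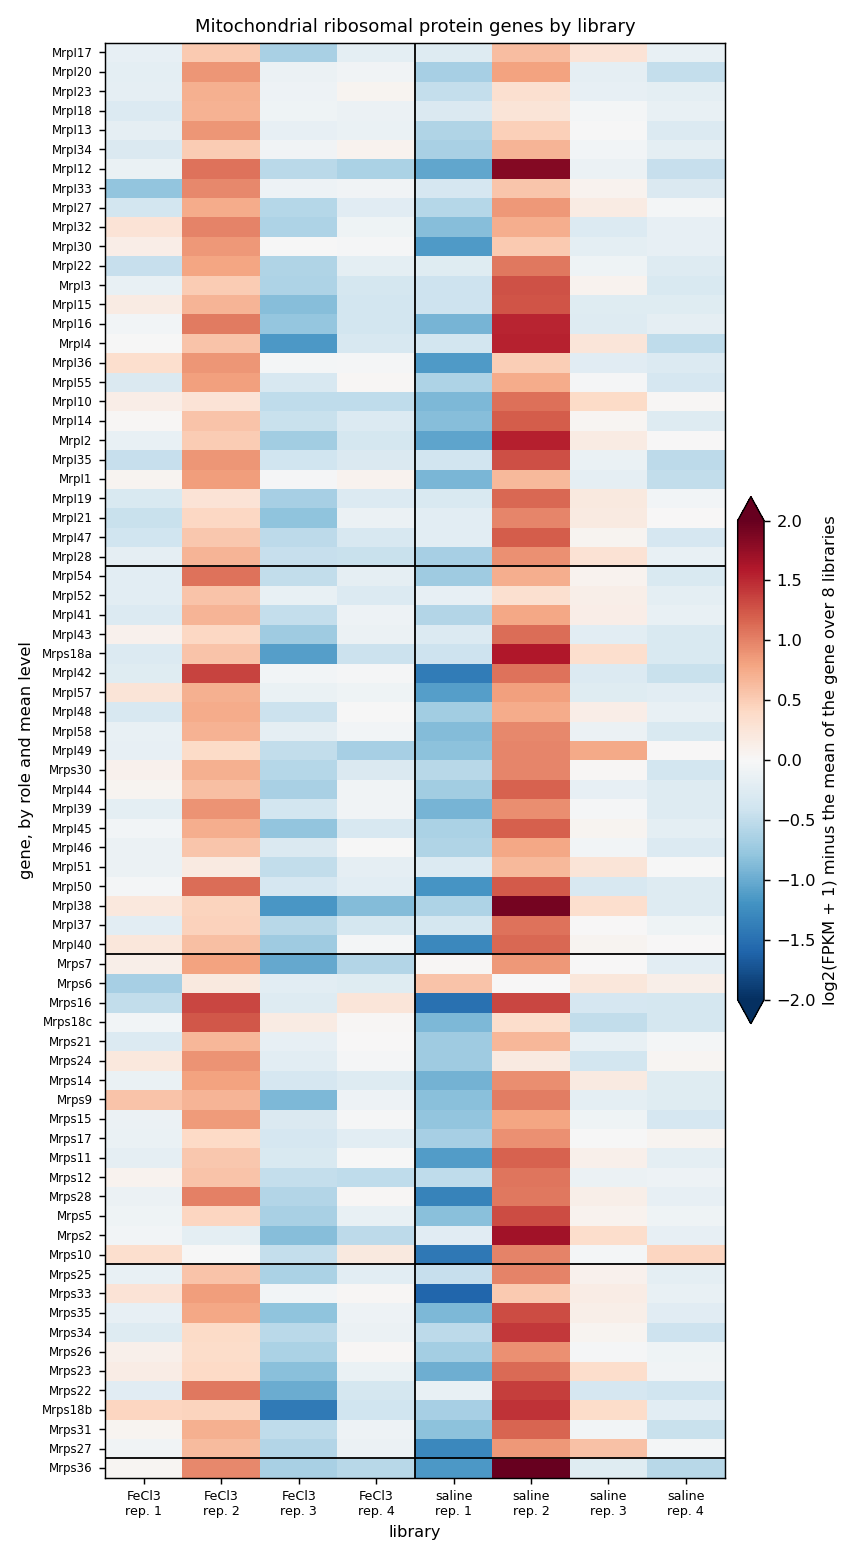
Each tested member (rows, grouped by role with horizontal lines, and by mean level within a role) in each library (columns, FeCl3 left and saline right), as log2(FPKM + 1) minus the mean of the gene. The columns of FeCl3 replicate 2 and saline replicate 2 are red in nearly every row, and the row of Mrps6 differs.

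Among the 27 large subunit proteins with a bacterial homologue, 10 estimates were positive and 17 negative (median -0.11). Mrpl17, the member with the highest mean level, had 66.4, 108, 47.7 and 65.1 FPKM after FeCl3 and 62.6, 115, 91.0 and 67.7 FPKM after saline. Its groups overlapped, with replicate 2 of each group on top (log2 fold change -0.25, SE 0.31). Mrpl20, whose bacterial homologue acts early in large subunit assembly, had 59.5, 128, 63.5 and 65.3 FPKM after FeCl3 and 42.9, 121, 60.4 and 49.2 FPKM after saline. Again both replicates numbered 2 stood far above the others.

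Mrpl12 forms the flexible stalk that recruits translation factors. It had 26.7, 63.0, 19.7 and 18.6 FPKM after FeCl3 and 13.8, 107, 26.8 and 21.1 FPKM after saline, a spread within saline far larger than its log2 fold change of -0.11 (SE 0.63). Mrpl3, a core protein near the peptidyl transferase centre, had 21.0, 33.5, 14.7 and 17.9 FPKM after FeCl3 and 17.1, 57.4, 24.5 and 18.7 FPKM after saline. The most positive estimates in this class were those of Mrpl36 (0.58), Mrpl30 (0.49) and Mrpl1 (0.47), and the most negative those of Mrpl19 (-0.49) and Mrpl21 (-0.48). Mrpl36, a small zinc-binding protein, had 21.5, 31.9, 16.2 and 16.5 FPKM after FeCl3 and 7.15, 23.9, 14.1 and 13.6 FPKM after saline, and saline replicate 2 alone made the groups overlap. The least expressed were Mrpl28, with a mean of 4.30 FPKM (log2 fold change -0.20), and Mrpl47, with 7.46 FPKM (-0.35).

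Of the 20 mitochondria-specific large subunit proteins, 8 had positive and 12 negative estimates (median -0.03). Mrpl54 was the most abundant, with 55.0, 137, 45.3 and 56.1 FPKM after FeCl3 and 38.7, 106, 67.1 and 51.3 FPKM after saline. Mrpl38, a protein of the central protuberance, had the most negative estimate (-0.69, SE 0.59), with 11.2, 13.4, 3.71 and 4.76 FPKM after FeCl3 and 5.91, 38.7, 12.3 and 7.80 FPKM after saline. FeCl3 replicates 1 and 2 lay among the saline values. Mrpl42 had the most positive (0.51, SE 0.55), with 24.2, 75.1, 27.9 and 28.5 FPKM after FeCl3 and 10.3, 62.9, 23.9 and 20.9 FPKM after saline.

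Mrpl58, a peptidyl-tRNA hydrolase that releases stalled chains and sits in the large subunit, had 23.9, 43.9, 23.4 and 25.6 FPKM after FeCl3 and 14.0, 52.9, 24.5 and 21.2 FPKM after saline. Its log2 fold change was 0.16. Mrpl41 (-0.08) and Mrps30 (-0.03), a large subunit protein in spite of its name, were as close to 0, and Mrpl40, also of the central protuberance, was a low member of the class at a mean of 6.36 FPKM (0.04).

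Of the 16 small subunit proteins with a bacterial homologue, 10 had positive and 6 negative estimates (median 0.03). Mrps7, which organises the head of the small subunit in bacteria, had 56.7, 92.2, 25.2 and 34.5 FPKM after FeCl3 and 53.0, 95.9, 52.8 and 44.8 FPKM after saline. Mrps2 had the most negative estimate of all members (-0.82, SE 0.43, adjusted p = 0.356 by limma), with 7.17, 6.41, 3.70 and 4.94 FPKM after FeCl3 and 6.30, 26.1, 9.89 and 6.56 FPKM after saline. FeCl3 replicates 1 and 2 lay above the lowest saline value, and FeCl3 replicate 2, high for most members, was not high here. Mrps12, a protein of the decoding centre, had a log2 fold change of -0.17, and Mrps10, with a mean of 6.71 FPKM, one of 0.02.

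Mrps6 was the only tested member whose highest library was neither saline replicate 2 nor FeCl3 replicate 2, both as deposited and with median-of-ratios scaling. It had 32.7, 59.6, 45.2 and 44.2 FPKM after FeCl3 and 78.0, 52.4, 61.1 and 56.8 FPKM after saline, so that saline replicate 1, the lowest library for most members, was the highest for Mrps6. The groups overlapped through FeCl3 replicate 2, and the log2 fold change was -0.46 (SE 0.24, adjusted p = 0.363 by limma). Without FeCl3 replicate 2 the saline values of Mrps6 all lay above the FeCl3 values, as they did in 10.5% of tested genes in that fit. In RefSeq Mrps6 overlaps Slc5a3, an inositol transporter gene. Slc5a3 itself had 0.62, 0.12, 0.54 and 0.91 FPKM after FeCl3 and 3.75, 0.81, 2.56 and 1.68 FPKM after saline, highest in saline replicate 1 as Mrps6 was, but lowest in FeCl3 replicate 2, the FeCl3 library where Mrps6 was highest. Whether reads of the one gene entered the other was not tested. Smooth muscle markers were likewise highest in saline replicate 1, and their part in the Mrps6 values was not tested either.

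Of the 10 mitochondria-specific small subunit proteins, 2 had positive and 8 negative estimates (median -0.18). Mrps33 had the most positive (0.53, SE 0.45), with 37.4, 55.8, 29.6 and 31.3 FPKM after FeCl3 and 9.59, 44.8, 34.4 and 27.7 FPKM after saline. Saline replicate 1 lay below every other value. Mrps27, an RNA-binding protein, was the least expressed of this class at a mean of 6.09 FPKM (-0.07).

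The Mrps18 paralogues, whose start regions are printed above, occupy different sites: Mrps18c is the small subunit form closest to the bacterial protein, Mrps18b sits elsewhere in the small subunit and Mrps18a in the large subunit. Mrps18c had 34.1, 85.9, 40.2 and 36.3 FPKM after FeCl3 and 18.6, 45.7, 25.1 and 27.7 FPKM after saline, the most positive estimate of all members (0.69, SE 0.37, adjusted p = 0.365 by limma). Its groups overlapped through saline replicate 2 alone. Mrps18b had 20.05, 20.3, 4.85 and 10.8 FPKM after FeCl3 and 8.82, 41.4, 19.1 and 12.4 FPKM after saline (-0.47, SE 0.55). Mrps18a had 23.9, 43.7, 13.1 and 21.2 FPKM after FeCl3 and 21.5, 90.6, 37.1 and 23.5 FPKM after saline (-0.62, SE 0.51). All 3 were high in saline replicate 2, and of these only Mrps18c was higher still in FeCl3 replicate 2, in FPKM as deposited. The differences between the paralogues were not tested.

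Mrps36, which is no ribosomal subunit, had the widest saline spread of the members named here, from 17.1 FPKM in saline replicate 1 to 175 FPKM in saline replicate 2, with 33.1 and 26.4 FPKM in saline replicates 3 and 4. After FeCl3 it had 40.3, 77.3, 24.7 and 26.3 FPKM, all inside the saline range (log2 fold change -0.10).

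While the level of the members differed widely between libraries, the ratio of the subunit sums stayed between 1.80 and 2.00. The summed FPKM of all members was 1679, 3086, 1346 and 1612 after FeCl3 and 1183, 3606, 1824 and 1550 after saline. The ratio of large to small subunit proteins, each summed in FPKM, was 1.80, 1.94, 2.00 and 1.86 after FeCl3 and 1.88, 1.90, 1.94 and 1.81 after saline. The means were 1.90 ± 0.089 (SD, n = 4) and 1.88 ± 0.055 (SD, n = 4), and the groups overlapped. As a ratio within a library, it does not depend on how libraries are scaled. The ratio of the subunits' median FPKM was 0.83, 0.98, 0.87 and 0.84 after FeCl3 and 0.92, 0.99, 0.99 and 0.93 after saline. There too the groups overlapped. Neither range was compared with that of other gene sets.

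Other genes of mitochondrial protein synthesis shared the high saline replicate 2 with the members, but not all of them shared the high FeCl3 replicate 2, and 0 passed the test in either direction. Saline replicate 2 was the highest library for 4 of 5 subunits under other symbols, 20 of 26 assembly and ribosomal RNA modification genes, 13 of 17 translation factors, 15 of 16 aminoacyl-tRNA synthetases and 9 of 11 genes of mitochondrial DNA replication and transcription. With saline replicate 2 set aside, FeCl3 replicate 2 led in 91.9% of members and 64.7% of translation factors, but in 34.6% of assembly genes, 31.3% of synthetases and 36.4% of the DNA genes (17.1% of all tested genes). The difference between these lists was not tested. Positive and negative estimates numbered 2 and 3, 7 and 19, 5 and 12, 2 and 14, and 6 and 5 in these lists in the same order. Tufm, the mitochondrial elongation factor that delivers aminoacyl-tRNA, had 20.3, 38.3, 8.48 and 13.5 FPKM after FeCl3 and 12.3, 108, 25.7 and 18.1 FPKM after saline.

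Among 8 tested regulators of mitochondrial genes 0 passed, and 1, the coactivator Ppargc1b, had an unadjusted p under 0.05 and groups that did not overlap (9.81% of tested genes were so). It had 0.97, 0.97, 0.81 and 1.84 FPKM after FeCl3 and 2.49, 19.5, 3.26 and 1.91 FPKM after saline (log2 fold change -1.37, SE 0.58, adjusted p = 0.289 by limma), and the gap between the closest values was small. The factors of the motifs above varied less: Nrf1 ran from 1.18 to 2.35 FPKM, Gabpa from 9.71 to 15.7 FPKM and Yy1 from 6.14 to 11.8 FPKM over the 8 libraries. Esrra, a nuclear receptor that acts with the coactivators, had 93.2 FPKM in saline replicate 2 and 8.37 to 19.9 FPKM in the other libraries.

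**Figure D4:**
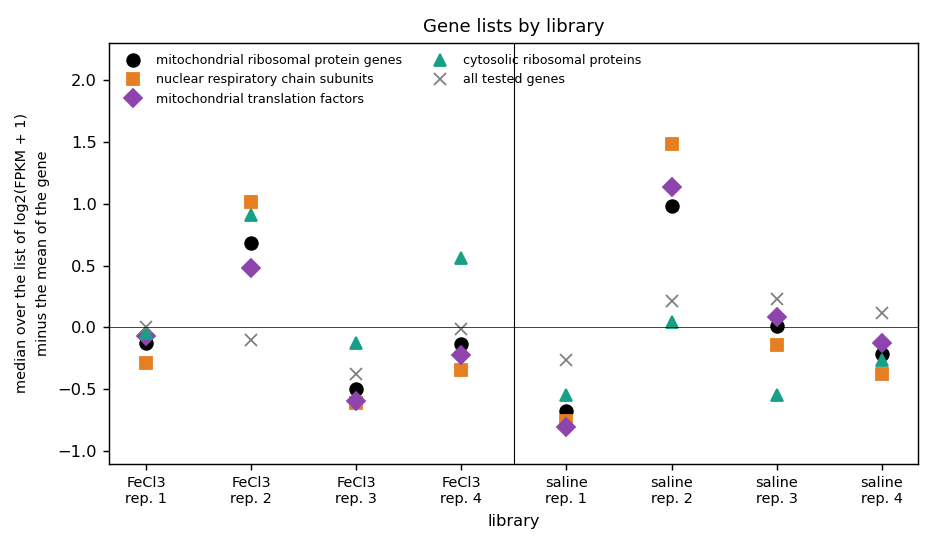
For 4 gene lists and all tested genes, the median over the list of log2(FPKM + 1) minus the mean of each gene (vertical axis) in each library. Members, translation factors and respiratory chain subunits are highest in saline replicate 2 (0.98, 1.13 and 1.48), where cytosolic ribosomal proteins stand at 0.05.

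The nuclear subunits of the respiratory chain, which assemble with the products of the mitochondrial ribosome, followed the same libraries with a wider swing. Of the 84 tested, 65 were highest in saline replicate 2 (27.4% of tested genes were) and 15 in FeCl3 replicate 2 (9.58%). Positive estimates numbered 29 and negative ones 55, and 0 passed. Summed members made up 13.8%, 9.50%, 12.1% and 13.1% of the summed FPKM of the respiratory chain list after FeCl3 and 13.7%, 8.51%, 14.4% and 13.8% after saline. The share was lowest in the replicate numbered 2 of each group, and the groups overlapped.

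In FPKM as deposited, the cytosolic ribosomal proteins were high in FeCl3 replicate 2 as the members were, but less raised in saline replicate 2. Their median was 542, 1047, 515 and 840 FPKM after FeCl3 and 375, 573, 395 and 469 FPKM after saline. Saline replicate 2 was thus the highest control and lay above FeCl3 replicates 1 and 3. Of the 84 tested, 72 were highest in FeCl3 replicate 2 (9.58% of tested genes were) and 2 in saline replicate 2 (27.4%). Saline replicate 1 was the lowest for 42 (34.6% of tested genes), but for 1 with median-of-ratios scaling and 1 with TPM. With TPM FeCl3 replicate 2 led in 53 and saline replicate 2 in 20, so these counts depend on the scaling. Positive estimates numbered 82 (median 0.63), 0 passed, and 23 had an unadjusted p under 0.05 (16.6% of tested genes did). In 19 every FeCl3 value lay above every saline value, as in 1.06% of tested genes. Summed members came to 3.51%, 3.20%, 2.89% and 2.20% of the summed cytosolic ribosomal proteins after FeCl3 and to 3.60%, 7.30%, 5.49% and 3.83% after saline, or 2.95% ± 0.56 (SD, n = 4) and 5.06% ± 1.72 (SD, n = 4). The groups did not overlap, though the highest FeCl3 library and the lowest saline library differed by less than either SD. The denominator alone was 46610 to 96424 FPKM after FeCl3 and 32861 to 49398 FPKM after saline, and both it and the members' sum overlapped between groups. Leukocyte markers, summed over 6 genes, stood at 307 to 709 FPKM after FeCl3 and at 3.73, 70.1, 56.5 and 536 FPKM after saline, and haemoglobin at the shares given above. Their part in the ratio was not tested.

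**Figure D5:**
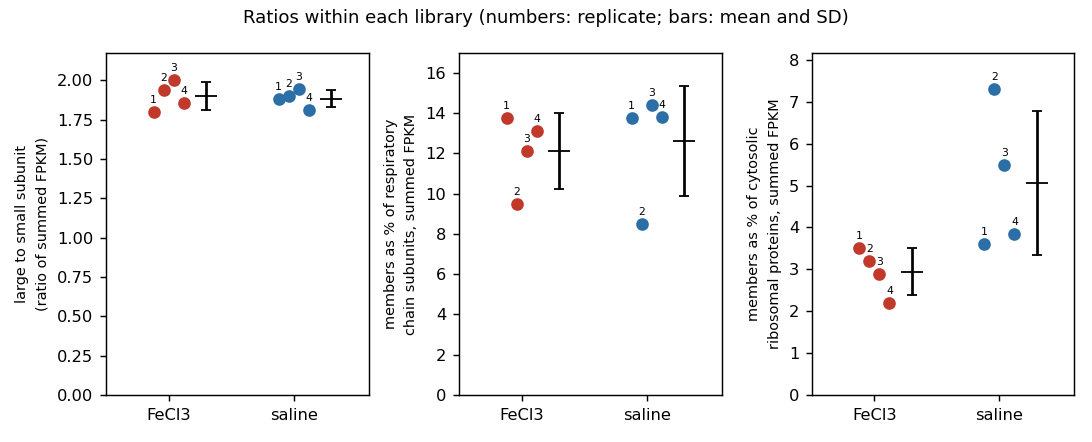
Ratios within each library for FeCl3 and saline, with the replicate number at each point and bars of mean and SD. The ratio of large to small subunit stays between 1.80 and 2.00, the share of the respiratory chain sum is lowest in replicate 2 of each group, and the share of the cytosolic sum is 2.20% to 3.51% after FeCl3 and 3.60% to 7.30% after saline.

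Without saline replicate 2, 60 members were higher after FeCl3 (median log2 fold change 0.25), 0 passed and 3 had an unadjusted p under 0.05 (17.4% of tested genes did). In that fit 6 members were higher in every FeCl3 library than in every remaining saline library (2.36% of tested genes were): Mrpl1, Mrpl30, Mrpl36, Mrpl42, Mrpl57 and Mrps18c. Saline replicate 2 was the library with the highest members, so the direction of that shift follows from leaving it out. Leaving out both saline replicates 1 and 2, which was also added after seeing the data, 45 members were higher, 0 passed and 6 were higher without overlap (2.61% of tested genes were). Without saline replicate 4, the control with haemoglobin within the range of the FeCl3 libraries, 160 genes passed the test and none of them was a member.

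The 3 genes spelled in lower case gave log2 fold changes of -0.14 (mrpl11), -0.34 (mrpl24) and 0.18 (mrpl9). Mrpl11 in that spelling had 22.6, 43.2, 16.6 and 25.3 FPKM after FeCl3 and 19.2, 65.4, 25.9 and 18.8 FPKM after saline, with the same libraries high as for the members. For mrpl24 the values were 14.7, 19.2, 10.6 and 15.3 FPKM after FeCl3 and 10.3, 39.2, 19.1 and 15.6 FPKM after saline. There FeCl3 replicate 2 was level with saline replicate 3. The pattern was broken by mrpl9, which was highest in FeCl3 replicate 1. It had 40.3, 32.8, 17.2 and 24.4 FPKM after FeCl3 and 15.5, 36.4, 24.9 and 23.6 FPKM after saline. By RefSeq the 75 members lie on 19 chromosomes, and 16 overlap another protein-coding gene. Whether the counting used strand is not given in the sources used here, so reads of such a pair cannot be told apart.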

How the data were processed

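RNA of 8 abdominal aortas was profiled, 4 after FeCl3 and 4 after saline. Per the labels' protocols, the mirVana kit was used for extraction and the VAHTS Universal V6 kit for the libraries. The authors deposited 1 FPKM value per gene and library. HTSeq, HISAT2, fastp and the build mRatBN7.2 are named in the submitters' processing notes. Versions, annotation and strand setting are not given in the sources used here. Columns were matched to samples by title. Members and gene lists were chosen with earlier results of these data known.

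From the low values, whole fragments were recovered for 100% of the 11921 tested genes within a tolerance of 0.02. The totals were 24304434 to 30283292 fragments, so depth is known. The fragments of 3 genes were then doubled to fill what was missing from the totals. Shares of fragments rest on the values after that step. The filter kept genes that reached 1 FPKM in 4 or more libraries. limma 3.58.1 (R 4.3.3) was fitted to log2(FPKM + 1), with trend, two-sided and without covariates, with Benjamini-Hochberg adjustment over all of them. A fold change on that scale understates the change of low genes. The scripts were tested on simulated data.

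Named members are the 6 highest and 6 lowest by mean FPKM, the 6 most positive and 6 most negative fold changes, and 12 members named for their roles; Mrpl57, Mrps24 and Mrpl51, and the genes outside the members that the text gives values for, were chosen after their values were seen. The name pattern for cytosolic ribosomal proteins was narrowed by name after the table was read, to leave out kinases. Alternatives covered pseudocounts of 0.1 and 0.01, other filters, TPM, median-of-ratios and quantile scaling, a total without haemoglobin genes, array weights, robust limma and limma without its trend, a haemoglobin covariate, limma voom on recovered fragments and each library left out, and 2 were added after seeing the data. RefSeq tables (GRCr8) gave start regions and neighbouring genes, and no coordinates were converted between builds. Figures were drawn with matplotlib 3.10.9.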

Additional observations from a re-analysis of the deposited data

Results flagged for a closer look

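Within a group of 4 libraries, 1 library stood far from the other 3 in 17 of the 70 groups checked. About 1 in 20 groups would be marked by chance if values were normally distributed. The rule was applied to FPKM and ratios without a log, and some genes were chosen for extreme levels or fold changes. Others, Ucp1 and Ppargc1a among them, were chosen after their values were seen, so the count cannot be set against chance. The checks are not independent, since they share libraries.

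In FeCl3, replicate 2 stood above the other 3 libraries for Mrpl20 (127.7 FPKM), Mrpl54 (136.7 FPKM), Mrpl47 (10.3 FPKM), Mrpl1 (23.4 FPKM), Mrpl30 (46.7 FPKM), Mrpl42 (75.1 FPKM), Mrps18c (85.9 FPKM), Mrpl58 (43.9 FPKM) and Ucp1 (76.5 FPKM). In saline, replicate 2 stood above the others for Mrps7 (95.9 FPKM), Mrps36 (174.8 FPKM), Mrpl47 (16.9 FPKM), Mrpl12 (106.9 FPKM), Mrps12 (31.1 FPKM), Ucp1 (6272 FPKM) and Ppargc1a (31.1 FPKM), a coactivator of mitochondrial genes. It stood below them in the share that the members made up of the summed respiratory chain subunits (8.51%).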

How the results depend on the processing

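No paired analysis was possible because the replicate numbers were given in accession order and the titles of the groups share only 1 number. The count of 0 members past the test held under 22 of the 23 alternatives; with TPM 2 passed, both lower (Mrps2 -1.52, adjusted p = 0.0461, and Mrps6 -1.19, adjusted p = 0.0423, by limma; 27% of tested genes passed lower). The count of 0 members whose groups do not overlap became 3 with TPM, all lower (Mrps2, Mrps6 and Mrpl51, 33.3% of tested genes), 1 with median-of-ratios scaling and 1 with quantile normalization (Mrps24 in both, higher; 4.24% and 3.64% of tested genes), 0 to 6 with 1 library left out (6 higher without saline replicate 2, 2.36% of tested genes; 1 lower without FeCl3 replicate 2, 10.5%) and 6 with saline replicates 1 and 2 left out (2.61%). The relative median of the members ran from -0.03 to 0.42 with 1 library left out, and its sign turned without FeCl3 replicate 2 and without saline replicate 1 alone. It was 0.65 with the haemoglobin covariate, where 71 members were higher and 0 passed, and 0.51 with the brown adipocyte covariate. Haemoglobin largely followed treatment, at 16.4% to 34.1% of fragments after FeCl3 and at most 1.63% after saline, except in saline replicate 4 (16.5%). That fit therefore leans on saline replicate 4, and the brown adipocyte fit on saline replicate 2. No direction is read from either fit.

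Fold changes of named members changed sign as follows, none of them past the test. With TPM the values were Mrpl20 -0.48, Mrpl54 -0.62, Mrps10 -0.60, Mrpl40 -0.59, Mrpl1 -0.21, Mrpl30 -0.22, Mrpl42 -0.20, Mrps33 -0.18, Mrpl36 -0.12, Mrps18c -0.024, Mrpl58 -0.55. With median-of-ratios scaling they were Mrps36 0.13, Mrps27 0.15, Mrpl12 0.12, Mrps12 0.050, Mrpl41 0.15, Mrps30 0.19, and with quantile normalization Mrps36 0.092, Mrps27 0.070, Mrpl12 0.070, Mrps12 0.048, Mrpl41 0.11, Mrps30 0.20. With haemoglobin genes left out of the total they were Mrpl17 0.066, Mrps36 0.21, Mrps27 0.19, Mrpl28 0.048, Mrpl12 0.20, Mrps12 0.12, Mrpl41 0.23, Mrps30 0.27. Array weights gave Mrps36 0.12, Mrps10 -0.18, Mrpl40 -0.014, Mrpl12 0.055, Mrps30 0.10, and limma voom gave Mrps27 0.0059. The haemoglobin covariate gave Mrpl17 0.28, Mrps7 0.40, Mrps36 0.96, Mrpl47 0.45, Mrps10 -0.26, Mrps27 0.31, Mrpl28 0.32, Mrps2 0.013, Mrpl38 0.33, Mrps18a 0.42, Mrpl19 0.072, Mrpl21 0.055, Mrps18b 0.42, Mrpl12 0.83, Mrpl3 0.45, Mrps12 0.26, Mrpl41 0.40, Mrps30 0.67. The brown adipocyte covariate gave Mrpl17 0.011, Mrps36 0.69, Mrpl47 0.052, Mrps27 0.36, Mrpl28 0.19, Mrps18b 0.043, Mrpl12 0.61, Mrpl3 0.13, Mrps12 0.23, Mrpl41 0.27, Mrps30 0.38. Leaving out saline replicates 1 and 2 gave Mrps36 0.35, Mrps10 -0.19, Mrpl40 -0.013, Mrpl12 0.23, Mrps12 0.024, Mrps30 0.16. With 1 library left out the ranges that cross 0 were Mrpl12 -0.49 to 0.48, Mrpl20 -0.00074 to 0.56, Mrpl28 -0.46 to 0.072, Mrpl3 -0.53 to 0.062, Mrpl40 -0.39 to 0.43, Mrpl41 -0.32 to 0.17, Mrpl54 -0.24 to 0.37, Mrpl58 -0.100 to 0.51, Mrps10 -0.45 to 0.36, Mrps12 -0.39 to 0.16, Mrps27 -0.51 to 0.21, Mrps30 -0.27 to 0.29, Mrps36 -0.50 to 0.60. The causes were not tested.

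With 4 libraries a group and a median residual SD of 0.65 for members, small differences could not be detected, and a p that misses the threshold does not show that groups are alike. Tested members had 69 or more fragments in each library, and the effect of depth was not tested.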
